A study of Mus musculus with 19 samples.

Results

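The 9 genes described here, Gabra6, Cbln3, Cnpy1, Ppp1r17, Slc6a5, Grin2c, Gad1, Gad2 and Slc12a5, are best known from neurons of the brain and spinal cord. They were taken by name from a deposited table of 36682 genes measured in mouse dorsal root ganglia, and all 9 were found. They had been selected on their measured counts, which were very low or 0 in 1 of the 4 groups, the naive mice given AP20187. Their low level in that group is therefore described here without a test. The values bore the description out in part: 4 of the 9 had no counts in that group, and the other 5 were lower but detected.

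All mice were males homozygous for the MaFIA transgene (macrophage Fas-induced apoptosis), including those given vehicle. As background, the transgene is driven by the promoter of Csf1r, a gene of macrophages and other myeloid cells, and the drug AP20187 dimerizes its Fas protein and kills the cells that carry it. DMM surgery (destabilization of the medial meniscus, a model of knee osteoarthritis) had been done 8 weeks before treatment, and naive mice were matched for age. AP20187 or vehicle was injected into the peritoneum daily on consecutive days. The groups were DMM with AP20187 (n = 5, mice 58 to 62), DMM with vehicle (n = 5, mice 32, 33, 34, 63 and 64), naive with AP20187 (n = 4, numbered 1, 3, 4 and 5) and naive with vehicle (n = 5, numbered 1 to 5). Each of the 19 stranded poly(A) libraries came from 1 mouse, whose lumbar ganglia L3, L4 and L5 of the surgery side were pooled.

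The dorsal root ganglion holds the cell bodies of sensory neurons, most of which release glutamate, with satellite glia, Schwann cells, vessels and immune cells. Inhibitory neurons of the brain and spinal cord make GABA with the enzymes encoded by Gad1 and Gad2, or take up glycine through the transporter GlyT2 encoded by Slc6a5. Both transmitters open chloride channels, and Slc12a5 encodes KCC2, the potassium-chloride cotransporter that keeps chloride low in mature central neurons. Gabra6 (a GABA-A receptor subunit), Grin2c (an NMDA receptor subunit) and Cbln3 (a cerebellin, a secreted synaptic protein) are typical of cerebellar granule cells, and Ppp1r17 (a phosphatase inhibitor) of Purkinje cells. Cnpy1 encodes a regulator of FGF signalling known from the midbrain-hindbrain boundary.

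Because the 9 genes share a pattern across the groups, the sequences before their start sites are shown for some of them. RefSeq windows on GRCm38.p6 were found for 8 of the 9 members, and the 250 bases upstream of the start were searched on both strands for 5 motifs. They were the TATA box as TATAAA, the GC box as GGGCGG and the E-box as CANNTG. The RE1 element, which the neuronal silencer REST binds, was searched by a short part of its left side, CAGCACC, and by a short part of its right side, GGACAGC. Gabra6 (chr11:42321073-42321322, minus strand) and the first of 2 listed starts of Slc6a5 (chr7:49910049-49910298, plus strand) stand for the genes with no counts in naive AP20187. Cbln3 (chr14:55884257-55884506, minus strand) stands for the genes detected there at the lowest share, and Gad1 (chr2:70561879-70562128, plus strand) and Gad2 (chr2:22622077-22622326, plus strand) make GABA. Sequences run 5′ to 3′, and capitals mark matches to any of the motifs.
Gabra6: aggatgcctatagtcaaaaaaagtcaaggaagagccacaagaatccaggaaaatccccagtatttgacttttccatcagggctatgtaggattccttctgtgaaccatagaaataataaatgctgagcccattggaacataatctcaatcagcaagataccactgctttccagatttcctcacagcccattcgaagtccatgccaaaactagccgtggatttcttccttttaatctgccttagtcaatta
Slc6a5: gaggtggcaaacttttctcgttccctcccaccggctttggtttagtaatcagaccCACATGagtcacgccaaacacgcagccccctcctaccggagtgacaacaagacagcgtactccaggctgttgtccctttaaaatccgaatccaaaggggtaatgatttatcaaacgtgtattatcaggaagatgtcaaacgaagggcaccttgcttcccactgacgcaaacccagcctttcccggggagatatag
Cbln3: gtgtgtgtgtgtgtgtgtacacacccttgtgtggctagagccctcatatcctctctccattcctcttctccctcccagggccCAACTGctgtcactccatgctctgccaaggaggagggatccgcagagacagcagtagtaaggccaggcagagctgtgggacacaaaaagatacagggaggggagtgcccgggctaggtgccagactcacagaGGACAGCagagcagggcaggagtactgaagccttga
Gad1: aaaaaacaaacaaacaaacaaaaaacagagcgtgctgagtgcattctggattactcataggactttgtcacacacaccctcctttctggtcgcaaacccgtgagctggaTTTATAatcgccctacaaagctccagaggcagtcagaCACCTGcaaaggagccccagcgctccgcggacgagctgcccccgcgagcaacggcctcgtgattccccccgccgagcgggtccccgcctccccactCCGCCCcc
Gad2: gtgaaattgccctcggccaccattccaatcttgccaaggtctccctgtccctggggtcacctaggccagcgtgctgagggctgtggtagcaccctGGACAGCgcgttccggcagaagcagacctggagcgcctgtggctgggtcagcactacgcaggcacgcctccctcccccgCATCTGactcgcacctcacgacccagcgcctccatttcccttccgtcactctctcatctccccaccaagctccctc

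The windows differed in composition and in motifs. That of Gabra6 held none of the motifs and had 40.8% GC, while that of Slc6a5 had 1 E-box and 50.4% GC. The Gad1 window, at 58.0% GC, held a TATA box, a GC box and an E-box. Cbln3 and Gad2 each held 1 E-box and 1 right RE1 part, at 57.6% and 64.0% GC. Of 32851 windows of this length, 66.2% held an E-box, 32.7% a GC box, 12.4% a TATA box, 5.73% the left RE1 part and 5.28% the right RE1 part, and the median GC was 52.4%. These matches describe the letters only.

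In the genome the members are spread over 6 chromosomes, given here as the files list them (GRCm39 per the submitters' processing notes). Gabra6 (ENSMUSG00000020428) lies at chr11:42197264-42211878 and Grin2c (ENSMUSG00000020734) at chr11:115139995-115158069, both on the minus strand. Cbln3 (ENSMUSG00000040380) lies at chr14:56116370-56121849 and Cnpy1 (ENSMUSG00000044681) at chr5:28405817-28450804, also on the minus strand. Ppp1r17 (ENSMUSG00000002930) lies at chr6:55994482-56009674 and Slc6a5 (ENSMUSG00000039728) at chr7:49559894-49613604, on the plus strand. Gad1 (ENSMUSG00000070880, chr2:70392386-70432358), Gad2 (ENSMUSG00000026787, chr2:22512217-22583886) and Slc12a5 (ENSMUSG00000017740, chr2:164802722-164841647) are on the plus strand of chromosome 2. Gad1 overlapped Gad1os on the opposite strand, which had 4 counts in all libraries together, and Grin2c overlapped an unnamed gene with 2.

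Libraries held 60984830 to 74691396 counts. Sensory neuron genes were abundant, with a mean over the 15 libraries outside naive AP20187 of 456 FPKM for Prph and 16.6 for Isl1 (fragments relative to transcript length and sequencing depth, as deposited), against 0.930 for Slc12a5, the highest member. Libraries differed in their makeup. The summed level of 15 sensory neuron genes ran from 901 to 4015 CPM (counts scaled to library size after TMM normalization) in naive AP20187 and from 3644 to 6434 in naive vehicle, with medians of 2987 and 5354. It ran from 549 to 2807 CPM in DMM AP20187 and from 1685 to 6378 in DMM vehicle. The sum of 8 skeletal muscle genes was 1772 to 2738 CPM in all naive AP20187 libraries. Elsewhere it was 2082 CPM in DMM vehicle mouse 32 and 53.3 to 524 in the other 14 libraries. The sum of 8 bone marrow genes was 5680 to 21060 CPM in naive AP20187 and 11640 to 20960 in DMM AP20187, against 273 to 5483 in DMM vehicle and 573 to 1519 in naive vehicle. The part of these differences in the results below was not tested. The labels name no dissection or sequencing batch, so a batch and the naive AP20187 group cannot be told apart, and in bulk tissue neither can fewer cells of a type and less RNA per cell.

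Gabra6, Slc6a5, Cnpy1 and Ppp1r17 had 0 counts in all 4 naive AP20187 libraries and at least 12 in each of the other 15. Over the whole table, 6 of 22778 tested genes (0.0263%) had at most 3 counts in every naive AP20187 library and at least 10 in every other one. These 4 members, chosen with that in view, were among the 6.

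Gabra6 had 76, 50, 46, 51 and 108 counts in naive vehicle and 0 in each naive AP20187 library. It had 51, 68, 21, 94 and 38 counts in DMM vehicle and 16, 59, 25, 58 and 34 in DMM AP20187. The DMM groups overlapped over most of their range, and the naive groups did not overlap. A count of 0 allows up to 3 counts per library, which is 0.0504 CPM on average in naive AP20187, so the level there was at least 19.3-fold lower than the 0.970 ± 0.339 CPM of naive vehicle (SD, n = 5). Floors of this kind cover counting error only.

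Slc6a5 had 64, 23, 68, 49 and 73 counts in naive vehicle and 0 in each naive AP20187 library. It had 50, 52, 50, 40 and 41 counts in DMM vehicle and 49, 27, 46, 31 and 38 in DMM AP20187. Both DMM groups lay within the range of naive vehicle counts. Against the floor, the naive AP20187 level of this glycine transporter was at least 16.02-fold lower than the 0.807 ± 0.265 CPM of naive vehicle (SD, n = 5).

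Cnpy1 had 42, 43, 24, 60 and 59 counts in naive vehicle and 0 in each naive AP20187 library. In DMM it had 48, 43, 27, 43 and 27 counts with vehicle and 26, 49, 46, 39 and 50 with AP20187. Only the naive AP20187 libraries stood apart, at least 13.5-fold lower than naive vehicle. Ppp1r17, the Purkinje cell gene, had 22, 20, 40, 20 and 34 counts in naive vehicle, 37, 32, 18, 35 and 32 in DMM vehicle, 26, 22, 36, 18 and 12 in DMM AP20187 and 0 in each naive AP20187 library. It was the least counted member, so its bound against naive vehicle was the smallest, at least 7.81-fold lower.

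Cbln3 had 184, 106, 113, 148 and 158 counts in naive vehicle and 8, 4, 11 and 4 in naive AP20187. It had 151, 160, 193, 178 and 105 counts in DMM vehicle and 85, 99, 146, 119 and 171 in DMM AP20187. All 4 naive AP20187 libraries were far below the lowest of the other 15. Their mean of 0.114 ± 0.0583 CPM (SD, n = 4) was 5.40% of the 2.11 ± 0.564 CPM of naive vehicle (SD, n = 5). Grin2c, the other granule cell gene still detected, had 134, 70, 96, 154 and 151 counts in naive vehicle and 17, 8, 6 and 16 in naive AP20187. It had 103, 130, 125, 102 and 83 counts in DMM vehicle and 68, 65, 86, 87 and 52 in DMM AP20187. Its naive AP20187 mean was 11.0% of that of naive vehicle, and the DMM AP20187 libraries lay in the lower range of the remaining 15.

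The genes for GABA synthesis kept a larger share. Gad1 had 374, 310, 453, 510 and 468 counts in naive vehicle and 36, 64, 84 and 151 in naive AP20187. It had 573, 435, 490, 458 and 423 counts in DMM vehicle and 416, 518, 435, 399 and 357 in DMM AP20187. The naive AP20187 mean of 1.39 ± 0.775 CPM (SD, n = 4) was 22.3% of the 6.24 ± 1.24 CPM of naive vehicle (SD, n = 5), with mouse 5 the highest of the 4. Gad2 had 190, 174, 223, 218 and 248 counts in naive vehicle and 30, 35, 45 and 65 in naive AP20187. It had 247, 187, 239, 208 and 160 counts in DMM vehicle and 184, 186, 252, 213 and 196 in DMM AP20187. Its naive AP20187 mean was 23.5% of that of naive vehicle, and the other 3 groups overlapped.

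Slc12a5 was the member with the largest share left in naive AP20187. It had 362, 374, 467, 435 and 419 counts in naive vehicle and 123, 209, 128 and 127 in naive AP20187. It had 452, 534, 584, 403 and 460 counts in DMM vehicle and 564, 465, 472, 456 and 591 in DMM AP20187. The naive AP20187 mean of 2.47 ± 0.710 CPM (SD, n = 4) was 40.6% of the 6.07 ± 0.581 CPM of naive vehicle (SD, n = 5). Mouse 3, at 3.53 CPM, was above the other 3 naive AP20187 libraries and still below each of the other 15.

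**Figure D1:**
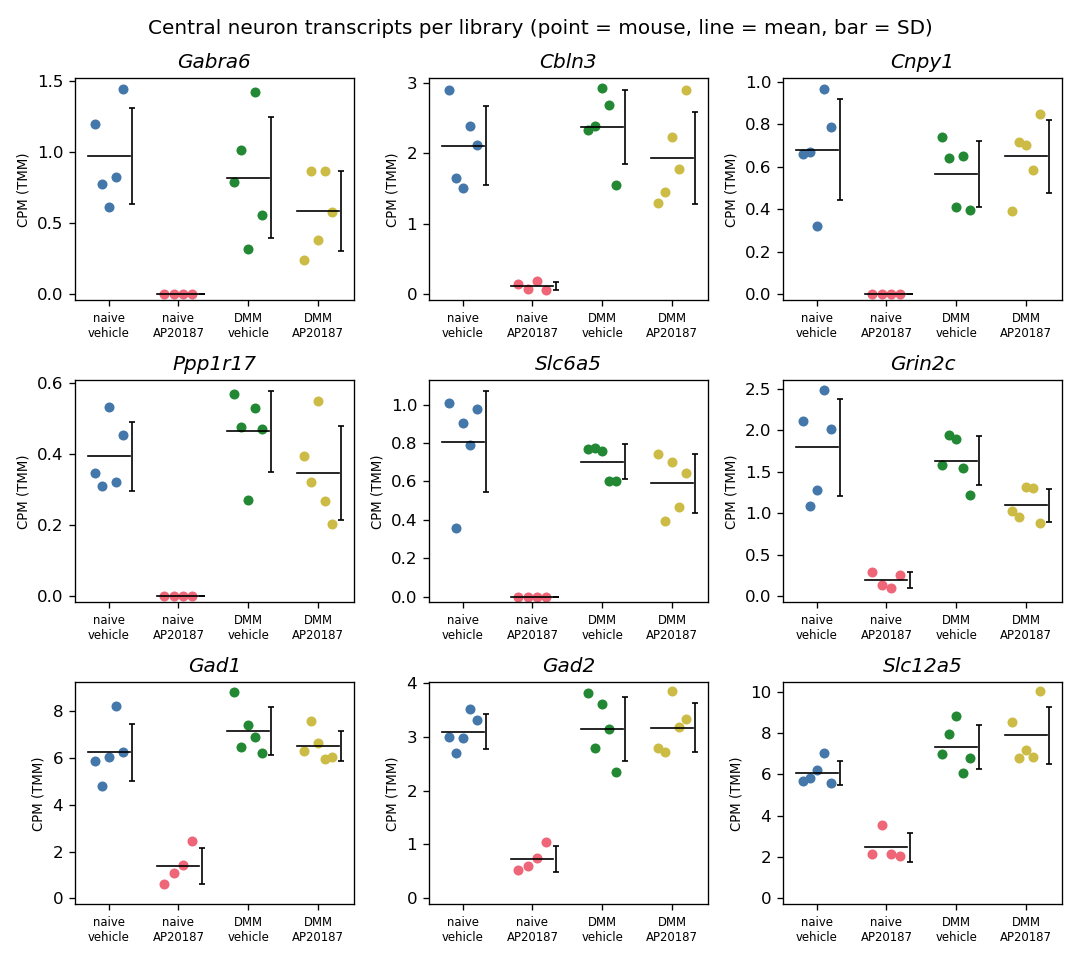
CPM of each of the 9 genes (vertical axes) in every library, by group; points are single mice. The 4 naive AP20187 points are the lowest in each panel and sit at 0 for Gabra6, Cnpy1, Ppp1r17 and Slc6a5, while the other 3 groups overlap.

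For all 9 members, the 4 naive AP20187 libraries were below all 15 others. The same held for 70 of the 22778 tested genes (0.307%), while for 0.391% all 4 lay above. AP20187 against vehicle in naive mice called 11.2% of tested genes in edgeR, 8.61% higher and 2.57% lower. Since this contrast chose the members, nothing is read from their count. On the deposited FPKM scale, which compares genes per length, the members were all weakly expressed. Over the 15 other libraries Slc12a5 (0.930 ± 0.159, SD, n = 15) and Gad1 (0.853 ± 0.136) were the highest and lay within their spread of each other. Gad2 (0.522 ± 0.0702) and Cbln3 (0.428 ± 0.109) followed, also within their spread, and then Gabra6 (0.307 ± 0.141), Grin2c (0.293 ± 0.0943) and Ppp1r17 (0.222 ± 0.0679). Cnpy1 (0.103 ± 0.0276) and Slc6a5 (0.0944 ± 0.0267) were the lowest and did not differ beyond their spread.

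AP20187 against vehicle in DMM leaves out the naive mice, whose values chose the members. The choice still bears on it, because members also had to be present in all 10 DMM libraries, which favours genes that do not fall in DMM AP20187. Nothing about the members as a set is therefore read from their count against that of all genes. Of the members, 0 of 9 passed an adjusted p of 0.05 in edgeR's quasi-likelihood test, against 5410 of 22778 tested genes (23.8%). At an unadjusted p under 0.05 the count was also 0 of 9, against 8496 of the 22778 tested genes. DESeq2 called 0 of 9, against 6971 of the 36682 genes it was given, a larger base than that of edgeR. The 2 DMM groups overlapped in each member, while they did not overlap for 12.9% of tested genes, and this too is in part set by the choice. The median log2 fold change of the members was -0.25, beside -0.10 over all tested genes.

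Grin2c had the lowest p in this contrast. The AP20187 mice averaged 1.10 ± 0.200 CPM (SD, n = 5) and the vehicle mice 1.64 ± 0.292 CPM (SD, n = 5), a log2 fold change of -0.58 (SE 0.315, 95% interval -1.25 to 0.09, edgeR adjusted p = 0.194). The granule cell genes Gabra6 (log2 fold change -0.48, interval -1.50 to 0.54) and Cbln3 (-0.30, interval -0.96 to 0.36) had edgeR adjusted p of 0.510 and 0.529. For Ppp1r17 the log2 fold change was -0.41 (interval -1.37 to 0.54) and for Slc6a5 it was -0.25 (interval -1.05 to 0.55). Cnpy1, also with few counts, had a log2 fold change of 0.19 (interval -0.67 to 1.06). These intervals are wide enough to include log2 changes of either sign.

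The 3 genes with the most counts gave tighter intervals. For Gad2 the AP20187 mice averaged 3.17 ± 0.456 CPM (SD, n = 5) and the vehicle mice 3.14 ± 0.594 CPM (SD, n = 5), a log2 fold change of 0.01 with an interval of -0.45 to 0.47. Gad1 had a log2 fold change of -0.14 (interval -0.69 to 0.41) and Slc12a5 of 0.11 (interval -0.29 to 0.50). An effect inside these intervals was not detectable at this depth and number of mice. On simulated counts for this contrast, 23 of 99 genes changed 2-fold and 53 of 98 changed 4-fold were recovered. The changed genes were drawn at random from all tested genes, each with its own spread. Over the 15 libraries outside naive AP20187, the SD as a share of the mean had a median of 44.0% over all tested genes. It was 13.9% to 17.9% for Gad2, Gad1 and Slc12a5, so the recovered shares do not apply to these 3 genes.

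**Figure D2:**
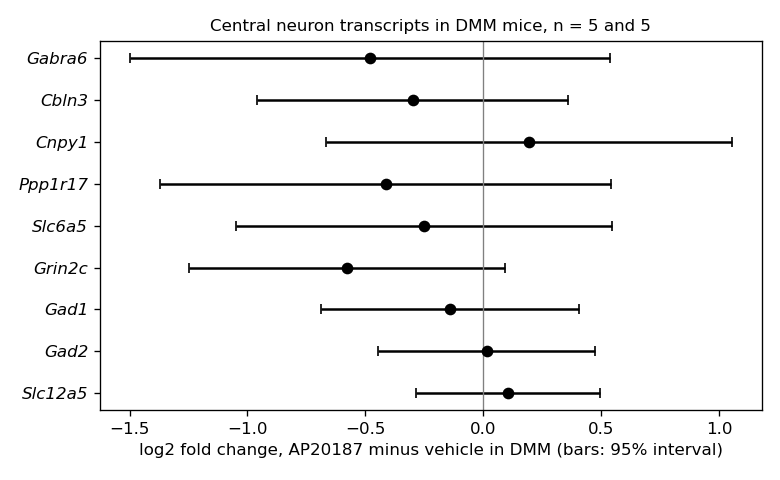
Log2 fold change of AP20187 against vehicle in DMM for the 9 genes, with 95% intervals from the edgeR model of all 19 libraries. Each interval includes 0, and that of Slc12a5 is the narrowest.

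Surgery was compared only by values, because naive vehicle libraries may have entered the choice of members. The DMM vehicle mean was 0.845 times that of naive vehicle for Gabra6, 0.833 for Cnpy1, 0.870 for Slc6a5 and 0.911 for Grin2c. It was 1.01 times for Gad2, 1.13 for Cbln3, 1.15 for Gad1, 1.18 for Ppp1r17 and 1.21 for Slc12a5. The 2 vehicle groups overlapped in counts for each gene.

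Outside naive AP20187 the members differed in how much they varied from mouse to mouse. Over the 15 libraries the coefficient of variation of CPM was 13.9% for Gad2, 15.2% for Gad1 and 17.9% for Slc12a5, and between 26.7% and 31.8% for Cbln3, Slc6a5, Cnpy1, Ppp1r17 and Grin2c. Gabra6 was the most variable at 46.1%, with a 5.95-fold range. Counting error alone would give 19.3% for Ppp1r17 and 4.62% for Slc12a5. Among 6337 tested genes in the same range of mean counts, the median was 49.6% and the quartiles 36.5% and 66.0%. All 9 members were below the median of that count range and 8 below its lower quartile, although being present in all 15 libraries was part of how they were chosen. Over all tested genes of any count the median was 44.0%, which Gabra6 exceeded.

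**Figure D3:**
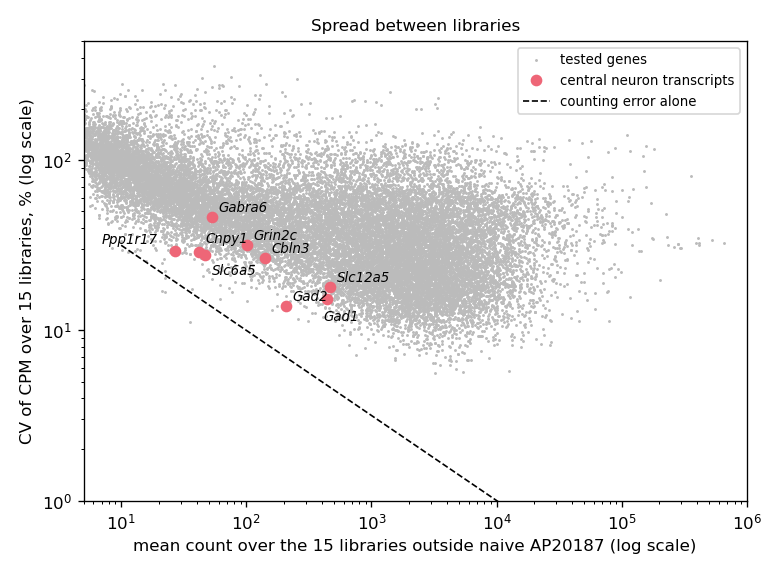
Coefficient of variation of CPM over the 15 libraries outside naive AP20187 against mean count, for the 9 genes and for tested genes of any count within the axes. Gad2, Gad1 and Slc12a5 are at 13.9% to 17.9% and Gabra6 is at 46.1%.

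The summed level of the 9 members ran from 18.2 to 26.5 CPM over the 15 libraries, a 1.46-fold range. In naive AP20187 it was 3.70, 5.40, 4.60 and 5.88 CPM in mice 1, 3, 4 and 5. The sum mostly follows Slc12a5, Gad1 and Gad2, with means of 7.09, 6.64 and 3.14 CPM, while Gabra6 alone had a 5.95-fold range. The sensory neuron sum had an 11.7-fold range over the same 15 libraries. Being present in all 15 was part of how the members were chosen, so the ranges are not compared on equal terms. DMM AP20187 mouse 58 had the lowest sensory neuron sum, 549 CPM, with a member sum of 21.7. Among naive AP20187, mouse 5 had 4015 CPM of sensory neuron genes, more than some vehicle libraries, with a member sum of 5.88. The part of sensory neuron content in the member sums was not tested.

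**Figure D4:**
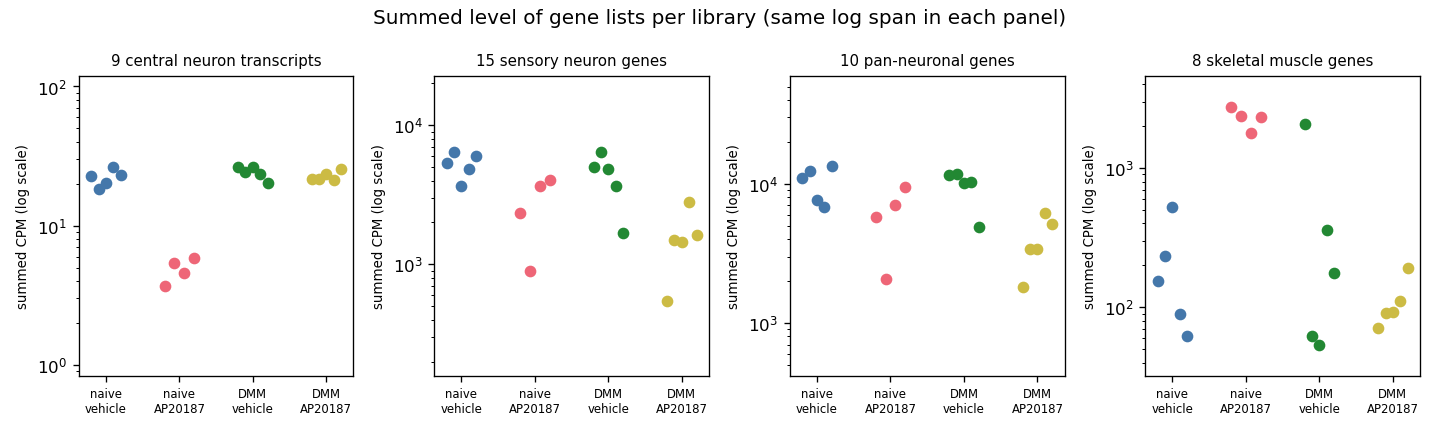
Summed CPM per library of the 9 members and of marker lists for other cell types, by group. The member sums of the 15 other libraries lie between 18.2 and 26.5 CPM and those of naive AP20187 between 3.70 and 5.88, while sensory neuron sums of naive AP20187 (901 to 4015 CPM) overlap those of each other group.

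Members varied together only loosely outside naive AP20187. Over the 36 pairs, the median Pearson correlation of log2 CPM across the 15 libraries was 0.233, from -0.656 for Gabra6 with Slc12a5 to 0.625 for Slc6a5 with Grin2c. The points share libraries and depth, so these are descriptions. The genes most like the mean member pattern over the 15 libraries, among 15368 candidates, were Slc1a2 (r = 0.757), the glutamate transporter of astrocytes, and Neurod1 (0.722), a transcription factor of granule cells and other neurons. Prob1 (0.719), Hoxb3 (0.710), Zpbp (0.690), Zfp862-ps (0.686), Kif27 (0.682) and Dnai4 (0.676) followed. In naive AP20187, Slc1a2 was at 10.02 CPM against 21.6 in the 15 others and Neurod1 at 0.380 against 0.912, whereas Hoxb3 was at 7.50 against 7.35 and Prob1 at 4.29 against 2.74.

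Other genes of the same cells and pathways, with the members left out of each list, did not all share the low level in naive AP20187. Medians were taken over genes with a mean of at least 0.2 CPM in the 15 other libraries, which leaves out the weakest genes. The median gene of the cerebellar granule cell list (12 of 14 kept) stood at 74.7% of its mean in those libraries. That of the Purkinje cell list (13 of 14) stood at 85.0% and that of the spinal and hindbrain inhibitory list (10 of 14) at 69.6%. The median was 96.0% for the 20189 tested genes at that level, 75.4% for sensory neuron genes and 5.33% for the members. Several of these genes are also expressed by sensory neurons or muscle, such as Pvalb, a calcium buffer listed for Purkinje cells and for muscle, at 227 CPM in naive AP20187 and 53.1 in naive vehicle. The next genes were chosen after their values were seen and went both ways. Fat2, an atypical cadherin of granule cells, had 0 to 36 counts in naive AP20187 and 30 to 133 in the other 15, and Pcp2 of Purkinje cells 0 to 8 against 7 to 43. Slc32a1, the vesicular transporter that loads GABA and glycine, had 24 to 43 counts in naive AP20187 and 102 to 192 in the other 15. Grin2a, an NMDA receptor subunit, had 0 to 29 against 54 to 122, and Grin2b 14 to 56 against 70 to 191. Neurod2, a forebrain transcription factor, had 0 to 4 against 8 to 38. Lbx1, a transcription factor of the spinal and hindbrain inhibitory list, went the other way, with 27 to 66 counts in naive AP20187 and 0 to 16 in the other 15. Rorb of the same list stood at 141.8% of the other 15, but varied widely. It had 0.532 ± 0.573 CPM (SD, n = 4) and 6 to 85 counts in naive AP20187, against 4 to 55 counts elsewhere. In that list Tfap2b and Lhx5 had 0 counts in naive AP20187, against 0 to 18 and 0 to 8 in the other 15. Lhx1 stood at 16.1% of the other 15. All 4 naive AP20187 libraries lay below the others in 1 gene of the list and above them in 1.

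**Figure D5:**
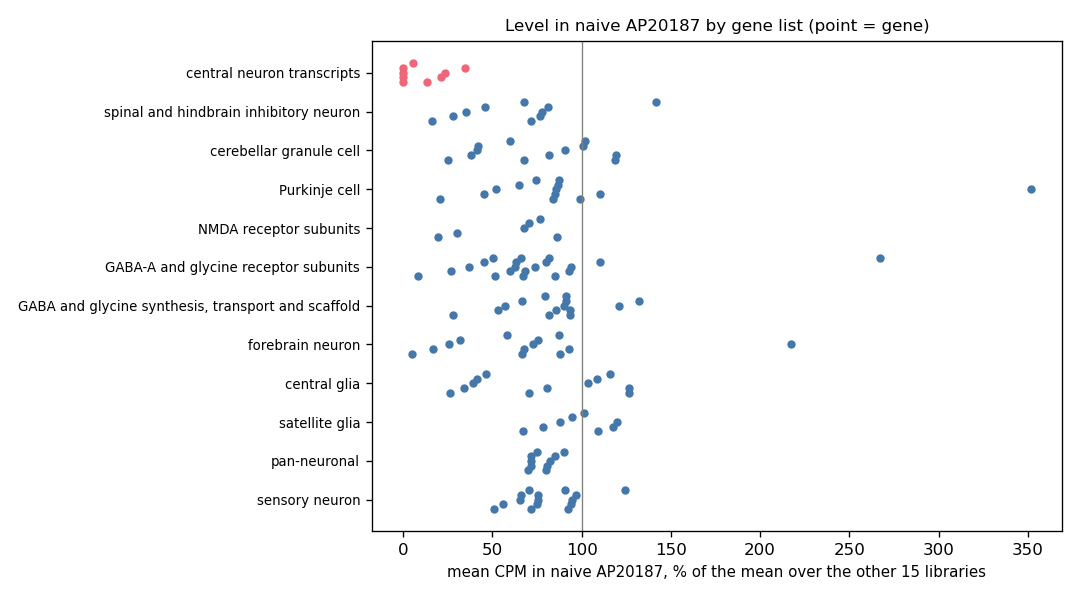
Mean CPM in naive AP20187 as a percentage of the mean of the 15 other libraries, for each gene with at least 0.2 CPM of each list shown. Points are single genes and medians are not drawn. Members run from 0 to 34.8%, and the medians of the granule cell, Purkinje cell and spinal inhibitory lists are 74.7%, 85.0% and 69.6%.

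The central glia list was also measured, as cells that accompany central neurons. Its summed level overlapped between naive AP20187 (95.4 to 147 CPM) and the other libraries (88.8 to 194), and its median gene stood at 75.4% of the other 15. In 2 of its 12 genes all 4 naive AP20187 libraries were below the others: Mog, a myelin protein of oligodendrocytes, had 0 to 24 counts against 37 to 90, and Slc1a2 had 422 to 882 against 1089 to 1817. Another 4 had a higher mean in naive AP20187 than in naive vehicle. Sox10, which peripheral glia also express, was at 41.0 CPM against 33.9 in naive vehicle. Gfap was at 10.5 against 8.89 and Aldh1l1 at 10.3 against 9.30. Mobp was at 27.3 ± 22.6 against 19.3 ± 1.97 (SD), with 412 to 3143 counts across the naive AP20187 libraries. Each remaining gene of the list had a lower mean than in naive vehicle. Olig1 was at 0.467 CPM against 1.20, Olig2 at 0.0935 against 0.214 and Opalin at 0.112 against 0.331. Aqp4 was at 10.1 against 14.9, Gjb6 at 6.24 against 6.97 and Hepacam at 9.91 against 11.1.

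In DMM, relatives and partners of the members were read beside the 23.8% of all genes called by edgeR. In the list for GABA and glycine synthesis, transport and scaffold, 1 of 14 rose and 6 fell with AP20187 (median log2 fold change -0.58). Those that fell included the glycine-cleaving enzyme Gldc (-1.18), the glycine transporter Slc6a9 (-1.32) and the GABA-degrading enzyme Abat (-0.70), and Shmt2 (0.77), a mitochondrial enzyme of serine and glycine metabolism, rose. Slc32a1 averaged 2.36 CPM in AP20187 mice and 2.05 CPM in vehicle mice and did not pass (edgeR adjusted p = 0.603). Of 21 tested GABA-A and glycine receptor subunits, 0 rose and 2 fell (median -0.53), namely Gabrb1 (-1.29) and Gabrg3 (-1.61).

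Of 6 NMDA receptor subunits, 0 rose and 1 fell, Grin2d (log2 fold change -0.77, median of the list -0.55). Among 6 cation-chloride cotransporters, relatives of Slc12a5, 0 passed (median 0.07), and among 8 genes of the cerebellin and canopy families with their receptors, 0 passed (median -0.48). In the granule cell list 0 of 13 rose and 1 fell, Etv1 (-0.98), and in the Purkinje cell list 1 of 14 rose, Fam107b (1.17), and 5 fell, among them Car8 (-1.19) and Rgs8 (-1.82). In the spinal and hindbrain inhibitory list 0 of 13 rose and 1 fell, Pax2 (-2.45, edgeR adjusted p = 0.00326). In the sensory neuron list 0 of 15 rose and 9 fell (median -1.37), and in the bone marrow list 7 of 8 rose (median 3.26). The part of these shifts in the values of the relatives was not tested.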

How the data were processed

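Bulk RNA sequencing of 19 mouse libraries in 4 groups was used. Raw counts per gene and FPKM were deposited by the authors, the counts without normalization. The submitters' processing notes name cutadapt, HISAT2, StringTie and GRCm39, with no versions or roles. Members and gene lists were chosen with earlier results of these data known.

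Counts were fitted in edgeR 4.0.16 (R 4.3.3) with TMM scaling, filterByExpr (minimum count 10) and a quasi-likelihood model of the 4 groups (15 residual degrees of freedom). P-values were two-sided and adjusted by Benjamini-Hochberg over 22778 tested genes, with a threshold of 0.05, and all 9 members passed the filter. The procedure was tested on simulated data. Correlations used log2 CPM with a prior count of 2. Alternatives were DESeq2 1.42.0, limma 3.58.1 on log2(FPKM + 1), no TMM, no filter, only the compared groups in the fit, and leaving out libraries or replicates.

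Named genes were all members, the 8 most like them over the 15 libraries outside naive AP20187, the genes near 0 in naive AP20187 only, and up to 4 of highest mean FPKM per list. List genes named outside this rule were chosen after their values were seen. Each library is 1 mouse. Promoter sequences are from RefSeq on GRCm38.p6, another build than that of the files.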

Additional observations from a re-analysis of the deposited data

Results flagged for a closer look

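Slc12a5 in naive AP20187 mouse 3, at 3.53 CPM, stood apart from the other 3 libraries of its group, the nearest of which was at 2.15 CPM. The gap was 0.937 of the range of the group. Of 32 combinations of a member and a group that were tested this way, 1 stood apart, and chance alone flags about 1 group in 20.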

How the results depend on the processing

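No member passed in DMM under any of 17 alternatives each (153 values, 0 called), and the lowest adjusted p was 0.0854, for Grin2c with limma on FPKM. The sign changed in 9 values of 3 members near 0. Gad1 moved to 0.018 with vehicle mice 63 and 64 alone. Gad2 moved to -0.0078 without TMM, to -0.005 on FPKM and to -0.10 with vehicle mice 32 to 34 alone, and ran from -0.0726 to 0.10 when single mice were left out. Slc12a5 moved to -0.0083 with vehicle mice 32 to 34 alone.

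Over all genes, 5410 passed in DMM, 3212 to 7677 when single mice were left out, with 3212 without DMM AP20187 mouse 58, 3419 without DMM vehicle mouse 32 and 3407 without DMM vehicle mouse 33. With vehicle mice 32 to 34 alone 8450 passed, and with 63 and 64 alone 1156. In naive mice 2548 passed, 4367 with DESeq2, 4147 with limma on FPKM and 994 to 3452 when single mice were left out. Of these calls 1962 of 2548 were higher with AP20187, 1550 of 2465 without TMM and 1625 of 4147 on FPKM. Same-numbered naive mice correlated at 0.008, 0.254, -0.053 and 0.223, so the numbers were not taken as pairs. A fit with the replicate block gave 2352 and the same 8 libraries without the block 1388, the latter chosen after seeing the data. The DMM groups share no replicate numbers. The causes of these differences were not tested. The 4 members at 0 in naive AP20187 had 12 to 108 counts in the other libraries, so depth limits their bounds and intervals.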

Other observations

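Beyond the members, 61 other genes had all 4 naive AP20187 libraries below all 15 others, and 33 of the 70 such genes stood under 25% of the mean of the 15, 8 of them members. In the opposite direction, 89 of 22778 genes (0.391%) had all 4 above. Only 2 genes besides the members had at most 3 counts in each naive AP20187 library and at least 10 in each other: Grm2, a metabotropic glutamate receptor, with 10 to 38 counts elsewhere, and Slc30a3, the zinc transporter of synaptic vesicles, with 12 to 41.

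The following genes of that set were chosen after their values were seen. Ttr, the thyroxine carrier made by the choroid plexus and the liver, was at 3.03 CPM in naive AP20187 and 8.12 in the other 15. Cck, a neuropeptide of the forebrain, stood at 13.8% of the others, Lamp5 at 22.4%, Icam5 at 33.6% and Camkv at 40.3%.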
